A study of Mus musculus with 12 samples.

Results

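Ets1 and 9 other genes of the ETS family, Fli1, Ets2, Elf1, Elf2, Elf4, Etv6, Gabpa, Elk3 and Elk4, were followed through 12 RNA-seq libraries of group 2 innate lymphoid cells (ILC2s). They are 10 of the 29542 genes summed from the deposited transcript estimates, and all 10 passed the filter on low counts that left 14431 genes for testing. The genes were chosen by family name with earlier results of these data in view, and Ets1 was selected on its difference between the genotypes. Its levels, fold changes and transcripts are therefore given as a description with no test, while the other 9 carry p-values adjusted over all 14431 genes. The question was whether the Ets1 difference is shared by Fli1, the ETS gene beside it on chromosome 9, or by other members of the family.

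ILC2s are lymphocytes without a rearranged antigen receptor that release type 2 cytokines. The cells came from skin-draining lymph nodes of CD45.1 mice that had been given 950 cGy and then marrow of CD45.2 Rag1-/- donors (label CD90.2) and of CD90.1 wild-type donors in equal parts, so both kinds of ILC2 developed in a shared, irradiated host. All 4 groups had received IL-33, the cytokine that expands ILC2s, with 30 ng per cheek and 240 ng given intraperitoneally, on 7 days. The groups, of 3 libraries each, are WT and Rag1-/--labelled cells at 8 weeks after transplant and the same at 20 weeks, all C57BL6. Genotype goes with the CD90 label throughout, so a genotype difference cannot be told apart from a difference between the CD90.1 and CD90.2 donors. The labels do not say that replicates came from separate animals, so the p-values measure only the spread between these libraries, which may be technical.

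ETS proteins share a winged helix-turn-helix domain that binds DNA around a GGAA core, and they differ in partners, in control by MAP kinases and in whether they activate or repress. Ets1 is the member most tied to lymphocytes: mice without it have defects of NK cells, T cells, B cells and ILC2s. Its DNA binding is held back by an inhibitory region next to the ETS domain, and alternative splicing is known to give a shorter protein in which the exon before that domain is skipped.

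Total estimated reads ran from 11433625 to 32529806 per library. WT replicate 2 and Rag1-/--labelled replicate 3 of 8 weeks stood apart on the first and second principal components, which held 24.2% and 17.3% of the variance. Rag1, the targeted gene, had 0 estimated reads in the 6 WT libraries and 0 to 18.4 in the 6 Rag1-/--labelled ones. This is not the direction that the label would give, but the allele may leave part of the transcript, which was not tested. These libraries are therefore called Rag1-/--labelled throughout. Thy1, which encodes CD90 and lies 11.3 Mb beyond Ets1 on the same chromosome, was at 2.96 to 5.7 TMM-scaled CPM in WT and 16.8 to 37.8 in Rag1-/--labelled libraries (CPM is estimated reads as a share of the library, scaled between libraries by the TMM method). The 12 ILC2 markers were present in every library, with Gata3 at 554 to 1357 CPM, Klrg1 at 1022 to 1770 and Il1rl1 at 167 to 336. Il13 and Areg were the lowest of them, at 7.1 to 36.3 and 0.89 to 5.52 CPM. Of 10 T cell markers, Trbc1, Trbc2 and Cd3g were the highest, at 229 to 481, 239.7 to 510 and 24.5 to 66.0 CPM. Cd3d and Trac were also present in every library, at 1.27 to 4.78 and 0.408 to 4.02 CPM. Cd3e, Cd4, Cd5, Cd8a and Cd8b1 reached at most 3.75, 1.59, 0.964, 0.967 and 3.43 CPM.

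Ets1 lies on chromosome 9 at 32636221 to 32757820 on the plus strand (GRCm38, GENCODE M21). The files hold 6 Ets1 transcripts, and Ets1-201, the full-length protein-coding form of 5080 bases, took 99.57% to 99.99% of the gene's estimated reads in the 12 libraries. Ets1-202 lacks coding exon 6 of Ets1-201 (chr9:32738099-32738359, 261 bases) and joins exon 5 to exon 7, which skips the exon before the ETS domain. The protein-coding Ets1-206 also lacks this exon, and the retained-intron transcripts Ets1-203 and Ets1-204 end upstream of it. The exon and the Ets1-202 junction are shown because skipping of this exon is the known alternative splice of Ets1. Capitals mark exon 6, and the lower-case letters on either side are the last 19 bases of exon 5 and the first 19 of exon 7, from the GENCODE M21 transcripts:
Ets1-201: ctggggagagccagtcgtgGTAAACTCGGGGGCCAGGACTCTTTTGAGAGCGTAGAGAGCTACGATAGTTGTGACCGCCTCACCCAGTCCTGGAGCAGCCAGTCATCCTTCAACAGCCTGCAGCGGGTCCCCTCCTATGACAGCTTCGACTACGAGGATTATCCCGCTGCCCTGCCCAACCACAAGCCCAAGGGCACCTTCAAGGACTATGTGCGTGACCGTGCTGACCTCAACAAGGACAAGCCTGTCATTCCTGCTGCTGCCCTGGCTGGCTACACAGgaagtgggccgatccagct
Ets1-202: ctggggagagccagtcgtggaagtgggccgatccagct

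Ets1-202 was estimated at 0 reads in 10 of the 12 libraries and reached at most 4.27 reads, 0.105% of the gene. The protein-coding Ets1-205 was at 0 in 10 libraries and at most 3.5 reads, and Ets1-206 was at 0 in all 12. Ets1-203, a retained-intron transcript that starts upstream of Ets1-201, had 3.78 to 37.2 estimated reads, 0.00758% to 0.428% of the gene. The group differences below are thus differences of Ets1-201, and the exon-6-skipping Ets1-202 was at or near 0 in all 4 groups. These splits are estimates from a 20-base k-mer model with no junction counts.

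Since the estimates come from 20-base words, words that Ets1 shares with its relatives matter for the comparison. Of 5060 such words in Ets1-201, 4990 (98.6%) occur in no annotated transcript of another gene. Fli1 shares 2 of them, all in a run of 21 bases inside the ETS domain, and Elk4 shares 2 outside the coding sequence. The other 7 listed genes share none, and the longest run that Ets2 has in common with Ets1-201 is 19 bases. The 60 coding bases around these runs are printed to show how close the paralogs come. Capitals mark bases that are the same in both lines of a pair, and each stretch joins 2 exons. Ets1 and Fli1 have 47 of 60 bases in common there (Ets1 chr9:32738351-32752849 plus strand, Fli1 chr9:32424255-32426060 minus strand), and Ets1 and Ets2 have 50 of 60 (Ets1 chr9:32738358-32752856, Ets2 chr16:95716296-95717905, plus strands):
Ets1-201 with Fli1: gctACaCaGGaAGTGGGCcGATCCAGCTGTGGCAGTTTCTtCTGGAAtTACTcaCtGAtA
Fli1-201: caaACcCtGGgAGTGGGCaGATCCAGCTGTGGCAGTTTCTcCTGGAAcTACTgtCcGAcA
Ets1-201 with Ets2: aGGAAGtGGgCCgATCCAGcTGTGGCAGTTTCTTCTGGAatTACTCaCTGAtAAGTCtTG
Ets2-201: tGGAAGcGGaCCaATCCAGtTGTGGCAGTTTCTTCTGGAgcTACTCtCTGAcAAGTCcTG

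Ets1 was lowest in WT cells at 8 weeks and higher in each of the other 3 groups. In WT at 8 weeks the 3 libraries held 178, 181 and 185 TMM-scaled CPM. In Rag1-/--labelled cells at 8 weeks they held 1209, 2119 and 5852 CPM, so that the lowest of these was 6.53 times the highest WT library. The means were 182 ± 3.61 and 3060 ± 2460 CPM (SD, n = 3), and the fitted log2 fold change was 4.07 (SE 0.48), a 16.9-fold difference. Replicate 3, the Rag1-/--labelled library that stands apart, carries part of this size: without it the log2 fold change was 3.20. In bulk RNA such as this, fewer cells with a transcript and less of it per cell cannot be told apart.

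At 20 weeks Ets1 was also higher in Rag1-/--labelled cells, by a smaller factor. The WT libraries held 944, 1138 and 945 CPM and the Rag1-/--labelled libraries 2307, 1829 and 1476 CPM. The groups did not overlap, the lowest Rag1-/--labelled library being 1.30 times the highest WT library. At 20 weeks 11.4% of all tested genes had groups that did not overlap, and Ets1 was selected on its genotype difference. The log2 fold change of Ets1 was 0.89 (SE 0.43), with means of 1009 ± 112 and 1870 ± 417 CPM (SD, n = 3). Averaged over both times it was 2.48 (SE 0.32), and the difference at 20 weeks minus that at 8 weeks was -3.18 on the log2 scale (SE 0.62). Without Rag1-/--labelled replicate 3 of 8 weeks these 2 values were 2.05 and -2.30.

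**Figure D1:**
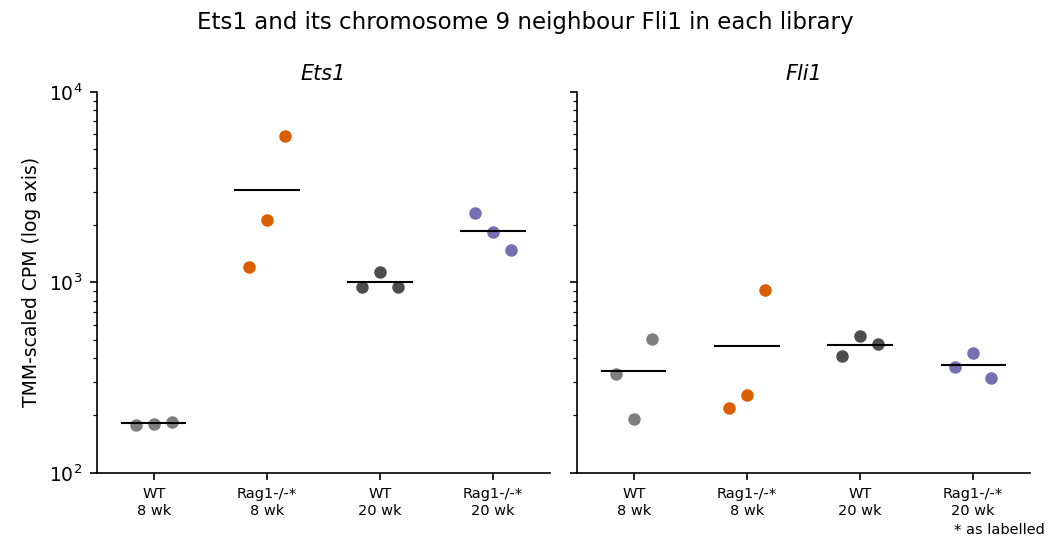
TMM-scaled CPM of Ets1 (left) and Fli1 (right) in each of the 12 libraries, on a log axis; points are libraries and lines are group means (n = 3). The 3 WT libraries of 8 weeks sit at 178 to 185 CPM for Ets1, below all 9 other libraries, while the Fli1 groups overlap.

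Within WT cells, which carry the CD90.1 label at both times, Ets1 was 5.56-fold higher at 20 than at 8 weeks (log2 fold change 2.47, SE 0.45). The lowest WT library of 20 weeks was 5.10 times the highest of 8 weeks. In Rag1-/--labelled cells the log2 fold change with time was -0.71 (SE 0.43), or 0.17 without that replicate, and the libraries of the 2 times overlapped. By mean level the groups ordered as WT at 8 weeks, WT at 20 weeks, Rag1-/--labelled at 20 weeks and Rag1-/--labelled at 8 weeks. Only the last 2 overlapped in that order. In TPM, which takes transcript length into account, Ets1 stood at 40.4 to 44.0 in WT at 8 weeks, rank 2811 to 2997 among the tested genes. It stood at 273 to 1344 TPM in Rag1-/--labelled cells at 8 weeks, rank 90 to 617.

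Other values also moved with genotype at 20 weeks. The Y-linked Ddx3y reached 101 to 113 CPM in 20-week WT cells and 0.395 to 1.91 CPM in the other 9 libraries, so it separates the WT cells of 20 weeks both from the Rag1-/--labelled cells of 20 weeks and from the WT cells of 8 weeks. The summed CPM of 7 B cell markers was 204 to 318 in WT and 163 to 198 in Rag1-/--labelled cells at 20 weeks, with no overlap. The file headers record 24 threads for all 3 Rag1-/--labelled libraries of 20 weeks and for 1 of the 3 WT libraries. With thread number as a covariate the log2 fold change of Ets1 at 20 weeks was 1.07, and the part of the Y-linked and B cell marker differences in the Ets1 values of 20 weeks, and in the change with time in WT, was not tested.

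Fli1, which directs blood, megakaryocyte and endothelial genes, overlapped between the genotypes at both times. It lies on the minus strand at chromosome 9, 32422204 to 32542861, 93.4 kb from Ets1, with the 2 genes facing away from each other. Fli1-201 took 99.8% or more of its reads in every library. WT libraries of 8 weeks held 331, 191 and 505 CPM, and Rag1-/--labelled libraries of 8 weeks 219, 257 and 909 CPM. The latter group thus held the highest Fli1 value of the 6 libraries, while its other 2 lay within the WT range. The log2 fold change was 0.43 (SE 0.48, adjusted p = 1 in edgeR's quasi-likelihood test), and without Rag1-/--labelled replicate 3 it was -0.52.

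At 20 weeks Fli1 was at 412, 520 and 474 CPM in WT and at 360, 427 and 315 CPM in Rag1-/--labelled libraries, with overlapping groups. Its log2 fold change was -0.35 (SE 0.48, edgeR adjusted p = 1), opposite in sign to that of Ets1. The average over both times was 0.04 (SE 0.34, edgeR adjusted p = 1). With time, Fli1 changed by a log2 value of 0.45 (SE 0.48, adjusted p = 0.737) in WT and -0.33 (SE 0.48, adjusted p = 0.939) in Rag1-/--labelled cells by edgeR. A p that misses the threshold does not show that the levels were equal.

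Because Ets1 and Fli1 are read in the same library, their ratio does not depend on the scaling between libraries. Per length, Ets1 transcripts were fewer than those of Fli1 in WT at 8 weeks, with Ets1 to Fli1 TPM ratios of 0.354, 0.63 and 0.242. The ratios were 3.59, 5.39 and 4.2 in Rag1-/--labelled cells at 8 weeks. At 20 weeks they were 1.49, 1.43 and 1.30 in WT and 4.18, 2.79 and 3.05 in Rag1-/--labelled cells. Both neighbours were highest in Rag1-/--labelled replicate 3 of 8 weeks, and the ratio in that library lay between those of the other 2 in its group.

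**Figure D2:**
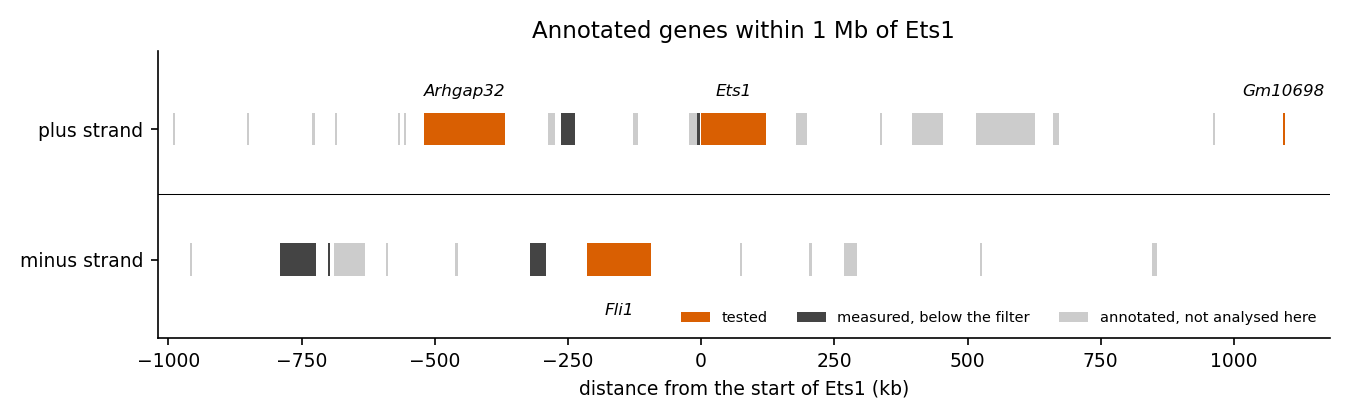
Annotated genes within 1 Mb of either end of Ets1, by distance from the start of Ets1 in kb and by strand; orange genes passed the filter, dark grey ones were measured below the filter and light grey ones are not analysed here (those inside Fli1 are hidden by its bar). Fli1 is the nearest tested gene, and Arhgap32 and Gm10698 are the only others tested in the window.

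Of 37 other annotated genes within 1 Mb of Ets1, 3 were tested, 5 were measured below the filter and 29 are not analysed here. Of the 3 tested neighbours 0 were called in any contrast by edgeR, and 0 had an unadjusted p under 0.05. Arhgap32 averaged 0.695 to 1.93 CPM in the 4 groups, with a log2 genotype change of -0.68 (SE 0.54, edgeR adjusted p = 1) averaged over both times. Gm10698, a processed pseudogene at the far end of the window, averaged 0.709 to 2.67 CPM, with a value of 1.04 (SE 1.10, edgeR adjusted p = 1). Among the genes below the filter, the potassium channel genes Kcnj5 and Kcnj1 and the homeobox gene Barx2 reached at most 0.296, 0.144 and 0.433 CPM. Apart from Ets1 and Fli1, then, the window held no gene above 4.13 CPM among those measured. The antisense gene Gm27240 lies within the span of Ets1 and is not analysed here. Without a stated strand, its reads and those of Ets1 cannot be told apart in any words that both share. Of the 5060 words in Ets1-201, 4990 (98.6%) occur in no annotated transcript of another gene.

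Of the 9 members other than Ets1, 0 were called in any of the 6 contrasts by edgeR, and 0 were by DESeq2 or limma-voom. At an unadjusted p under 0.05 the edgeR count was also 0 of 9 in each contrast, where 3.62% of all tested genes passed for genotype at 8 weeks, 2.08% at 20 weeks, 3.71% for the average and 2.18% for the difference between times. For time, 13.3% passed in WT and 8.33% in Rag1-/--labelled cells. At an adjusted p few genes were called overall: 0.201% of tested genes for genotype at 8 weeks, 0.0554% at 20 weeks, 0.222% for the average and 0.097% for the difference between times. For time the shares were 0.513% in WT and 0.0624% in Rag1-/--labelled cells. At 8 weeks a fit blocked by replicate number called 15 genes for genotype in place of 29, and 0 of the 9. A count of 0 of 9 is near these background shares and so is not a result about these genes.

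The sizes of the differences were set beside those of all tested genes, which include scarcer ones. At each time the SEs of the 9 ran from 0.17 to 0.48, and the median SE of all tested genes was 0.35. At 8 weeks the log2 genotype changes of the 9 ran from -0.17 to 0.43, with a median of 0.15 beside 0.02 for all tested genes. At 20 weeks they ran from -0.35 to 0.25, with a median of 0.01 beside -0.01. Their median absolute change was 0.17 at 8 weeks, where all tested genes had 0.22, and 0.08 at 20 weeks, where all had 0.19. No member other than Ets1 had groups that did not overlap in CPM at either time, beside 5.63% of all tested genes at 8 weeks and 11.4% at 20 weeks. For 9 genes this is near the background too and so is not a result about them.

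**Figure D3:**
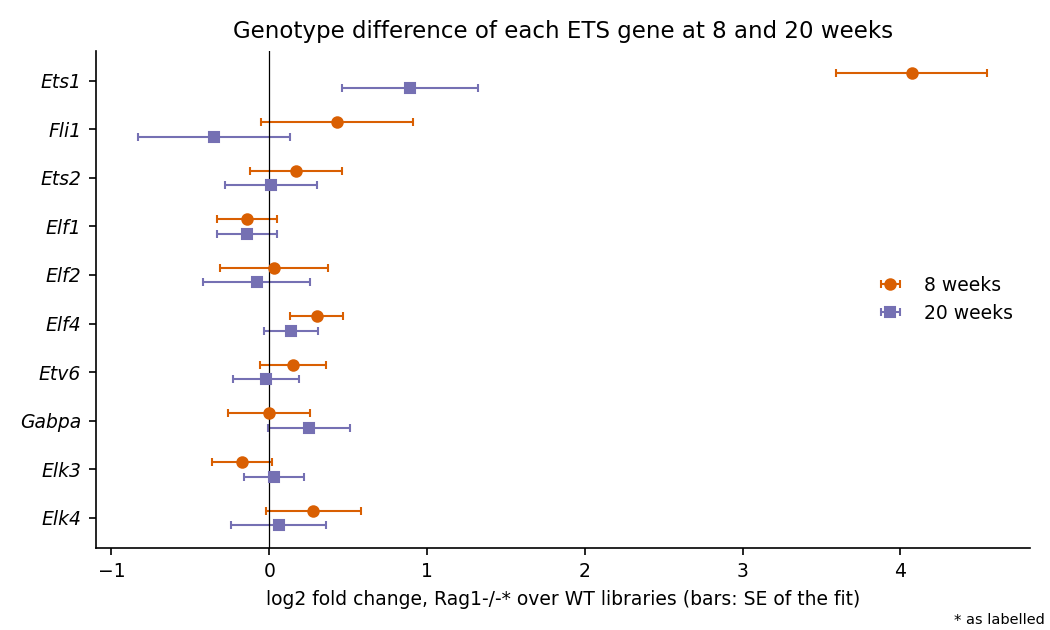
Fitted log2 fold change of Rag1-/--labelled over WT libraries for each gene at 8 weeks (circles) and 20 weeks (squares); bars are the SE of the fit. Ets1 lies at 4.07 and 0.89, and the 9 other genes lie between -0.35 and 0.43.

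Ets2 is the closest paralog of Ets1 and, like it, is activated by MAP kinase phosphorylation. It was the least abundant member, at 1.21 to 2.14 TPM in the 12 libraries, so that Ets1 exceeded it per length in every group. In CPM it stood at 5.36 ± 0.969 in WT and 6.04 ± 1.05 in Rag1-/--labelled cells at 8 weeks, and at 4.43 ± 1.11 and 4.46 ± 0.436 at 20 weeks (SD, n = 3). Its log2 genotype changes were 0.17 (SE 0.29) and 0.01 (SE 0.29), with edgeR adjusted p = 1 for each.

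Elf1, Elf2 and Elf4 form a subfamily in which Elf1 acts on lymphoid and myeloid genes and Elf4 restrains T cell proliferation and supports NK cells. Elf1 was the steadiest abundant member, at 205 to 322 CPM, a 1.57-fold range over 12 libraries. Its genotype change was -0.14 (SE 0.19) at 8 weeks and -0.14 (SE 0.19) at 20 weeks on the log2 scale, with edgeR adjusted p = 1. Elf4 had an average genotype change of 0.22 (SE 0.12, unadjusted p = 0.0886, adjusted p = 1 by edgeR). Its libraries held 53.2, 66.3 and 57.9 CPM in WT and 76.8, 62.5 and 79.8 CPM in Rag1-/--labelled cells at 8 weeks, so that 1 Rag1-/--labelled library fell within the WT range.

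Elf2 varied more between libraries than between genotypes. It was at 35.9, 38.0 and 21.9 CPM in WT and at 16.4, 36.1 and 45.5 CPM in Rag1-/--labelled cells at 8 weeks, and at 17.5 to 25.1 CPM in the 6 libraries of 20 weeks. Its changes with time were -0.59 (SE 0.34, adjusted p = 0.489) in WT and -0.69 (SE 0.34, adjusted p = 0.626) in Rag1-/--labelled cells by edgeR, and -0.5 and -0.19 with counts rebuilt from TPM. Its reads were spread over transcripts: Elf2-203 took 36.8% to 55.2% in WT and 24.8% to 31.4% in Rag1-/--labelled cells at 8 weeks, and 18.0% to 28.2% and 9.73% to 44.1% at 20 weeks. These shares did not overlap between genotypes at 8 weeks and overlapped at 20 weeks, and they were not tested. How many of all transcripts do the same was not counted, so the non-overlap is not a result about Elf2.

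Etv6 is a repressor needed for blood stem cells. It stood at 38.0 ± 9.04 and 42.3 ± 7.86 CPM at 8 weeks and 40.0 ± 4.06 and 39.3 ± 3.71 CPM at 20 weeks, WT first (SD, n = 3). The log2 genotype change was 0.15 (SE 0.21) at 8 weeks, or 0.35 with counts rebuilt from TPM, and -0.02 (SE 0.21) at 20 weeks, with edgeR adjusted p = 1. Its reads lay mostly in 2 long protein-coding transcripts, with 45.3% to 79.5% of reads in Etv6-202 in 11 libraries. In WT replicate 1 of 20 weeks, at the low end of this range, Etv6-201 held more, 53.6%. WT replicate 2 of 8 weeks had 7.56% in Etv6-202.

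Gabpa encodes the DNA-binding subunit of GABP, a factor of Il7r and of mitochondrial genes. At the gene level it was at 18.5 ± 5.31 and 18.4 ± 4.57 CPM at 8 weeks and at 20.2 ± 2.73 and 24 ± 3.66 CPM at 20 weeks, WT first (SD, n = 3). Its log2 genotype change of 0.25 (SE 0.26) at 20 weeks had an edgeR adjusted p = 1. With counts rebuilt from TPM, which take transcript length into account, its genotype change at 8 weeks was 0.33 in place of 0.0, and its change with time in Rag1-/--labelled cells was -0.01 in place of 0.38 (edgeR adjusted p = 1 and 0.997). The share of its shorter protein-coding transcript Gabpa-202 was 29.5%, 23.2% and 26.3% in Rag1-/--labelled cells at 8 weeks and 3.58%, 19.7% and 0.719% in WT. At 20 weeks it was 9.56%, 10.5% and 7.16% in WT and 2.19%, 11.1% and 2.95% in Rag1-/--labelled cells. The shares did not overlap between genotypes at 8 weeks and overlapped at 20 weeks, and this was not tested: it was chosen for mention after its values were seen. Here too, how many of all transcripts do the same was not counted.

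Elk3 and Elk4 are ternary complex factors, which bind with serum response factor (Srf) at early response genes and respond to MAP kinases, Elk3 acting mainly as a repressor. Elk3 stood at 44.9 to 53.3 CPM in 11 libraries and at 72.7 CPM in WT replicate 2 of 8 weeks. Its log2 genotype change was -0.17 (SE 0.19) at 8 weeks, with edgeR adjusted p = 1, and 0.08 without that library. Elk4 was at 41.9, 45.4 and 109 CPM in Rag1-/--labelled cells at 8 weeks and at 48.4 to 60.9 CPM in the other 9 libraries. Its change of 0.28 (SE 0.30, edgeR adjusted p = 1) was -0.29 without replicate 3. For both genes a transcript annotated for nonsense-mediated decay held much of the reads, 27.1% to 48.8% in Elk3-202 and 65.7% to 79.4% in Elk4-207.

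**Figure D4:**
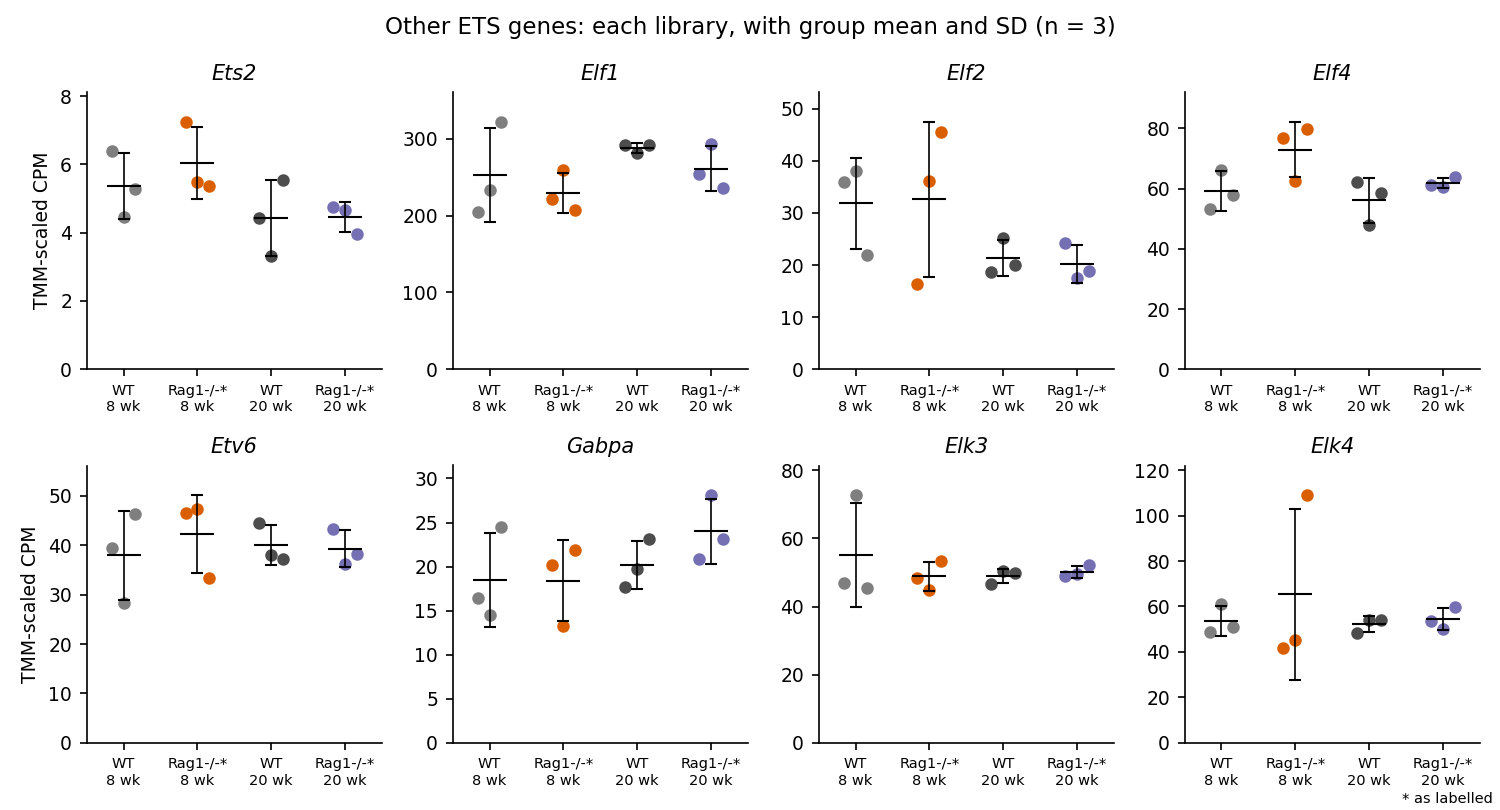
TMM-scaled CPM of the 8 other ETS genes in each library (points), with group mean and SD (n = 3); each axis starts at 0. The genotypes overlap at both times for every gene, and single libraries stand out for Elk4 (109 CPM) and Elk3 (72.7 CPM).

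Rag1-/--labelled replicate 3 of 8 weeks was the highest of the 12 libraries for 5 of the 10 genes, Ets1, Fli1, Elf2, Elf4 and Elk4. WT replicate 2 of 8 weeks was the lowest for 2, Fli1 and Etv6. Without both of these libraries Ets1 kept a log2 genotype change of 3.20 at 8 weeks, while Fli1 stood at -0.80 and Elk4 at -0.19.

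The make-up of ETS transcripts was taken as each gene's share of the summed TPM of 26 ETS genes, the 10 listed and 16 others. Ets1 made up 9.87% to 12.8% of the sum in WT at 8 weeks and 51.7% to 71.1% in Rag1-/--labelled cells. At 20 weeks it made up 37.0% to 40.7% in WT and 52.4% to 62.4% in Rag1-/--labelled cells. Fli1 had the largest share of any gene in 2 of the WT libraries at 8 weeks, 35.0% and 40.9%. The sum of the 25 genes without Ets1 was 275 to 402 TPM in WT and 255, 309 and 546 TPM in Rag1-/--labelled cells at 8 weeks, and 400 to 463 and 354 to 437 TPM at 20 weeks. These sums overlapped between genotypes at both times, while the share of Ets1 did not overlap at either time. Ets1 was selected on its genotype difference, so the non-overlap of its share is a description and not a test.

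**Figure D5:**
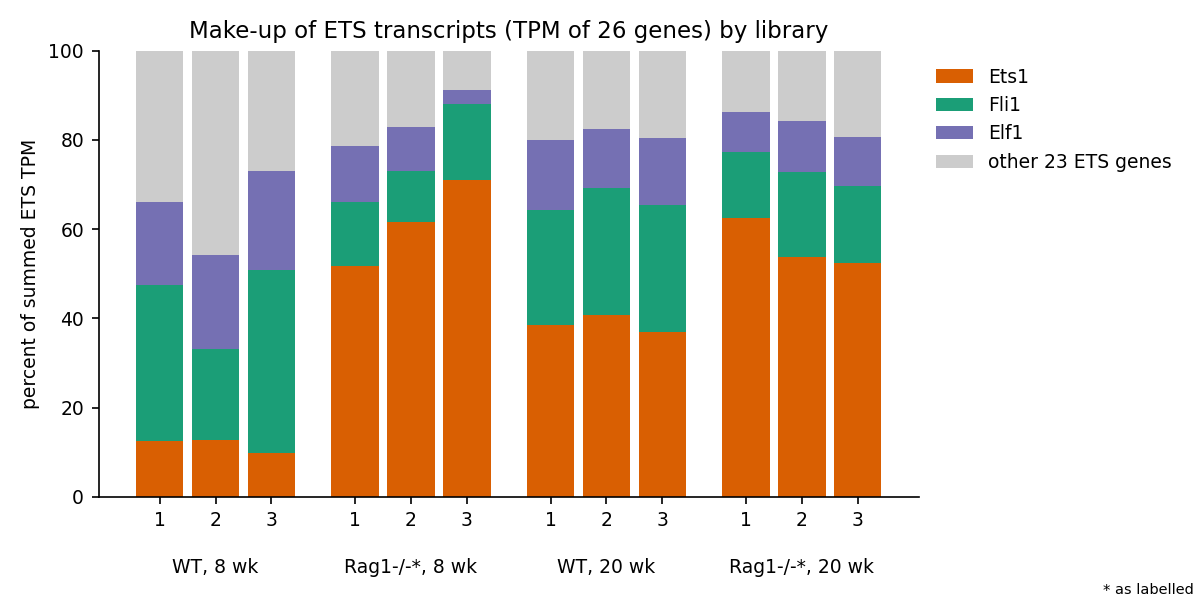
Share of the summed TPM of 26 ETS genes held by Ets1, Fli1, Elf1 and the other 23 in each library, in percent. Ets1 holds 9.87% to 12.8% in WT libraries of 8 weeks and 37.0% or more in the 9 other libraries.

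Of the 16 ETS genes outside the list, 8 were tested and 0 were called in any contrast by edgeR, with 0 at an unadjusted p under 0.05. The median log2 genotype change of these 8 was 0.32 averaged over both times, beside 0.01 for all tested genes. Etv3, a repressor, averaged 21.9 to 24.3 CPM in the 4 groups, and the other 7 averaged at most 5.72 CPM. The largest average values were those of Elf3 at -1.46 (SE 1.41), Ehf at 0.82 (SE 0.49) and Spic at 0.61 (SE 0.29), with edgeR adjusted p = 1 for each. Spic, which directs red pulp macrophages, averaged 1.96 CPM in WT and 3.61 CPM in Rag1-/--labelled cells at 8 weeks. The epithelial genes Elf3 and Ehf averaged 0.166 to 1.16 and 0.357 to 0.923 CPM. Spi1, which marks myeloid and B cells, averaged at most 0.115 CPM in any group, and Spdef was at 0 in all libraries.

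Ets1 works with partner proteins, among them the RUNX factors, and ternary complex factors work with Srf. Of 24 partners and modifiers 23 were tested, and 0 were called for genotype by edgeR, with 0 at an unadjusted p under 0.05. The largest average genotype changes were those of Tbx21, the T-bet gene, at -1.24 (SE 1.16), Gabpb1, which encodes a partner of Gabpa, at 0.46 (SE 0.23), and the corepressor Sin3a at 0.38 (SE 0.18), with edgeR adjusted p = 1. The median over the 23 was 0.07, beside 0.01 for all. With time, 1 of 23 was called in each genotype, and it was Fos.

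Of 20 genes described as controlled by ETS factors in lymphocytes 18 were tested, and 0 were called in any contrast by edgeR. At an unadjusted p under 0.05 there were 0 for genotype at 8 weeks, 1 at 20 weeks and 4 for time in each genotype, beside 3.62%, 2.08%, 13.3% (WT) and 8.33% (Rag1-/--labelled) of all tested genes. Their median average genotype change was -0.01, with 8 higher and 10 lower. Cd244a, the gene of an NK cell receptor, came closest: it was at 12.1 ± 1.84 and 16.4 ± 1.56 CPM at 8 weeks and at 10.8 ± 0.895 and 20.4 ± 5.0 CPM at 20 weeks, WT first (SD, n = 3). Its average log2 change of 0.68 (SE 0.16) had an edgeR adjusted p = 0.236.

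Of 12 early response genes linked to the ELK factors and Srf, 11 were tested. Like the lists above, this list was chosen with earlier results of these data known. Its counts and p-values are therefore not an independent test. For genotype 0 were called by edgeR, with 1 at an unadjusted p under 0.05 on average, and the largest average changes were those of Egr2 at -0.72 (SE 0.45), Egr1 at -0.54 (SE 0.28) and Vcl, the vinculin gene, at 0.41 (SE 0.15), each at an edgeR adjusted p = 1. With time, 9 of 11 were lower and 2 higher in each genotype. The median log2 change was -0.84 in WT and -0.58 in Rag1-/--labelled cells, beside 0.03 and 0.0 for all tested genes. By edgeR 3 of 11 were called lower in WT, beside 0.312% of all tested genes. In Rag1-/--labelled cells 1 of 11 was called lower, beside 0.0624% of all. Fos went from 1050 ± 159 to 215 ± 14.0 CPM in WT (log2 fold change -2.29, SE 0.26, edgeR adjusted p = 0.00109). In Rag1-/--labelled cells it went from 817 ± 275 to 207 ± 23.2 CPM (log2 fold change -1.98, SE 0.25, edgeR adjusted p = 0.0144). Fosb fell by 1.87 (SE 0.32, edgeR adjusted p = 0.0216) and Egr1 fell by 2.15 (SE 0.41, edgeR adjusted p = 0.0429) on the log2 scale in WT. In Rag1-/--labelled cells their values were -1.42 (SE 0.31, edgeR adjusted p = 0.216) and -2.18 (SE 0.41, edgeR adjusted p = 0.167). The Fos call in WT held under all 20 alternatives, with adjusted p up to 0.0125. The Egr1 call was lost on leaving out any 1 of 9 libraries, with adjusted p up to 0.201. The Fosb call was lost without WT replicate 1 or 3 of 20 weeks or WT replicate 1 or 2 of 8 weeks (adjusted p up to 0.126). The Fos call in Rag1-/--labelled cells was lost without any 1 of their 3 libraries of 20 weeks or without replicate 2 of 8 weeks (adjusted p up to 0.163), and also with the Rag1-/--labelled libraries fitted alone (adjusted p = 0.169) and with thread number as a covariate (adjusted p = 0.0585). With the WT libraries fitted alone, the Fosb and Egr1 calls were lost too (adjusted p = 0.0819 and 0.067). Elk3 and Elk4 themselves had changes with time of -0.17 and -0.04 in WT and 0.04 and -0.26 in Rag1-/--labelled cells. No dates are given, so time and batch cannot be told apart.

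Pearson's r of log2 CPM with Ets1 over the 12 libraries is given as a description, since the libraries share group, depth and scaling. Of the members, Elf4 had the highest r (0.42), next Fli1 (0.391) and Elk4 (0.382), and Elk3 the lowest (-0.224). The 5 tested genes most like Ets1 were Coro2b (0.92), Nefh (0.914), Arid3b (0.907), Eri3 (0.903) and Tmem164 (0.901). Coro2b and Arid3b lie on chromosome 9 as Ets1 does, and Nefh, Eri3 and Tmem164 on chromosomes 11, 4 and X.

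Nefh, a neurofilament gene, showed the low WT group at 8 weeks most plainly: it was at 0 CPM in all 3 of those libraries and at 8.58 to 20.0 CPM in the 9 others. Coro2b, a coronin gene, averaged 0.952 ± 0.474 CPM in WT and 13.1 ± 0.864 CPM in Rag1-/--labelled cells at 8 weeks, and 5.72 ± 1.69 and 10.7 ± 4.65 CPM at 20 weeks (SD, n = 3). The 2 genes most opposite were Cdk5rap1 (-0.934) and Klrk1 (-0.917), which encodes the receptor NKG2D. Cdk5rap1 averaged 92.7 ± 6.38 CPM in WT at 8 weeks and 16.6 to 20.8 CPM in the other 3 groups. These genes were picked for their likeness to Ets1 or its opposite, so a WT group of 8 weeks that stands apart follows from the choice.

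Markers of other cells were set beside these results. The summed CPM of 7 B cell markers was 171 to 380 in WT and 189 to 573 in Rag1-/--labelled cells at 8 weeks. Replicate 2 of the latter had the highest Igkc (170.4 CPM). The sum of 10 T cell markers was 802 to 884 CPM in WT and 498 to 874 in Rag1-/--labelled cells at 8 weeks, most of it Trbc1 and Trbc2, and Cd5 was at 0 in 7 of 12 libraries. For 6 NK or ILC1 markers the sums were 58.1 to 233 and 73.5 to 228 CPM, with Eomes at 0 in 9 libraries. B cells and T cells express Ets1, and these sums overlapped between the genotypes at 8 weeks. At 20 weeks the B cell sums given above did not overlap, and the T cell sums were 794 to 921 CPM in WT and 635 to 798 in Rag1-/--labelled cells, overlapping narrowly. The 6 tested B cell markers had a median log2 genotype change of 1.74 at 8 weeks and -0.86 at 20 weeks, and a median of -2.72 with time in Rag1-/--labelled cells and -2.98 for the difference between times. Of these 6, 0 were called by edgeR in any contrast, with 5 at an unadjusted p under 0.05 for time in Rag1-/--labelled cells. The part of such cells in the Ets1 values was not tested.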

How the data were processed

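RNA-seq of IL-33-expanded ILC2s was analysed in 12 libraries, 4 groups of 3. Per the file headers, the deposited files list an expected count (estimated number of reads) and a TPM per transcript, made by the authors with sailfish 0.6.3 from 20-base k-mers of Ensembl release 76; the submitters' processing notes also list STAR 2.0.4b and featureCounts 1.4.5. Of 86127 transcripts, 83739 (97.2%) matched GENCODE M21 (GRCm38) by identifier and were summed to 29542 genes; the other 2388 held 1.01% to 1.54% of reads. The series text and the sample labels differ on the later time, and the labels' 20 weeks were used. Summed counts were rounded, filtered (filterByExpr), TMM-scaled and fitted with edgeR 4.0.16 (quasi-likelihood, 4 group means, 14431 genes, Benjamini-Hochberg adjusted p under 0.05, common biological coefficient of variation 0.377). The scripts were tested on simulated data. Mean ± SD are over CPM of 3 libraries. CPM are depth-scaled only, and TPM was used to compare genes.

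The members and lists were chosen with earlier results of these data known. Named are all members, each list's called genes and its 3 with the largest average genotype change, genes within 1 Mb of Ets1, and the 5 most and 2 least correlated with Ets1. A gene that this rule names is not reported here. Alternatives were DESeq2 1.42.0, limma-voom (limma 3.58.1), RLE size factors, no filter, length-scaled TPM, thread number, a replicate block, each genotype or time alone and each library left out. Same-numbered libraries of the 2 genotypes had deviations from their group means that correlated at 0.226, 0.158 and 0.107 at 8 weeks, all above 0.1. The numbers were therefore taken as possible pairs there, which rests on this check and not on the labels. At 20 weeks the values were 0.0707, 0.0715 and 0.117, not all above 0.1, so the check did not mark the numbers as pairs. At both times each value was the highest for its libraries, so the check does not settle the pairing. The main fit uses no pairs, and the replicate block treats the numbers as pairs at both times. Leaving out both libraries that stood apart was added after seeing the data. Older symbols were matched through RefSeq synonyms. Of the 44 member transcripts in the files, 35 have the same length in GENCODE M21, Ets1-201 among them. Amino acid sequences and the promoters of Ets1 and Fli1 are not shown.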

Additional observations from a re-analysis of the deposited data

How the results depend on the processing

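Across the alternatives named above and the leave-one-out fits, 0 of the 9 members other than Ets1 were called in each of the 6 contrasts, with at most 2 at an unadjusted p under 0.05. The Ets1 log2 genotype change stayed positive: 3.20 to 4.45 at 8 weeks, 0.71 to 1.07 at 20 weeks and 2.05 to 2.67 on average. Leaving out one library gave 3.20 to 4.45 at 8 weeks, the lowest without Rag1-/--labelled replicate 3, and leaving out both libraries that stood apart also gave 3.20. The Ets1-201 share was 99.86% on average and 99.47% as a share of TPM. Of 1098 single values of the other members under alternatives, 98 changed sign, none of them called. Without Rag1-/--labelled replicate 3 of 8 weeks, Fli1 turned to -0.52 at 8 weeks, -0.43 on average, 0.18 for the difference between times and 0.64 with time in Rag1-/--labelled cells; the cause was not tested.

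Genes called among all tested depended on the tool: DESeq2 called 75, 32, 76, 35, 498 and 150 for genotype at 8 weeks, at 20 weeks, on average, genotype by time, time in WT and time in Rag1-/--labelled cells, where edgeR called 29, 8, 32, 14, 74 and 9. The lowest counts under any alternative were 8, 3, 19, 9, 29 and 0. With a replicate block 0 of 9 members were called, Ets1 stood at 3.75, 0.87 and 2.31, and 15, 4, 19 and 9 genes were called for the 4 genotype contrasts. The block was not run for the time contrasts, since a number links libraries only within 1 time. Depth limits the scarce genes: Ets2 had 44.8 to 202 estimated reads per library.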
